A study of Mus musculus with 12 samples.

Results

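Poly(ADP-ribose) polymerase (PARP) genes linked to interferon responses, with the ubiquitin ligase gene Dtx3l, were followed across brain RNA-seq libraries of mice with and without cerebral malaria. The 9 genes were taken by symbol from the deposited count table: Parp1, Parp3, Parp8, Parp9, Parp10, Parp11, Parp12, Parp14 and Dtx3l, out of 21957 genes read. All 9 passed the filter on low counts. The mice were 6-week-old wild type C57BL/6 in 3 groups of 4 libraries: mice with experimental cerebral malaria (ECM) treated with artesunate for 4 days, untreated ECM mice, and control mice. ECM is a malaria infection of mice that leads to brain disease, and artesunate is an antimalarial drug. No label says whether the 4 libraries of a group come from different animals, so p-values measure the spread between libraries, which may be technical.

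PARP enzymes take ADP-ribose from NAD and attach it to proteins or nucleic acids. PARP1 builds long ADP-ribose chains at DNA breaks, while most of the family attaches single units. Several members are induced by interferons, and some bind viral RNA, restrain viral translation or change interferon signalling itself. PARP9 has no strong enzyme activity alone and works as a complex with DTX3L, a deltex-family ubiquitin ligase. PARP14 carries macrodomains, which bind ADP-ribose, and has been studied in macrophage and T-cell signalling.

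Promoter windows of RefSeq (build GRCm38.p6, the assembly of mm10), from 250 bases before to 50 after a gene's start, were matched for Parp1, Parp3, Parp8, Parp11, Parp12 and Dtx3l, with 2 windows for Parp11. Parp9, Parp10 and Parp14 had no window in the table. Both strands were searched for TTTCNNTTTC, the core of the interferon-stimulated response element, which 3.4% of 32851 windows of this length hold. The gamma-activated site core TTCNNNGAA, held by 8.3% of the windows, was searched in the same way. Parp11 was the member with matches: its window at the annotated start holds 1 of each, beginning at -44 and -37, and the 2 matches overlap. No match was found in the windows of Parp1, Parp3, Parp8, Parp12 and Dtx3l or in the other window of Parp11. The sequences, 5′ to 3′ on the gene's strand, are the bases before the start of Parp11, whose level was lower in ECM, and of Parp3, Parp12 and Dtx3l, whose levels were higher. Bases in annotated exons of other transcripts are left out, the longest remaining stretch is shown, and capitals mark the matches. For Parp12 this stretch runs from -123 to -1. For Dtx3l it runs from -250 to -180, so the bases nearest its start were searched but are not shown.
Parp11, chr6:127446590-127446839, plus strand: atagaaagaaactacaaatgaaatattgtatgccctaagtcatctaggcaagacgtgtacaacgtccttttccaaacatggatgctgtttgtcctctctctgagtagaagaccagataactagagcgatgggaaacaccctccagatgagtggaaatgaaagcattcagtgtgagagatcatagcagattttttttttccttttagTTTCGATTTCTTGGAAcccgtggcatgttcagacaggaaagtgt
Parp3, chr9:106476950-106477199, minus strand: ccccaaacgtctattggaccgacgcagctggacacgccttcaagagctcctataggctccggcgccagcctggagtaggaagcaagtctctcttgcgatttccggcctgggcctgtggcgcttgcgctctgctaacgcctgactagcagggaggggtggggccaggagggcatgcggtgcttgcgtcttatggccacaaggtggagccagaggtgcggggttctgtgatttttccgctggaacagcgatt
Parp12, chr6:39118350-39118472, minus strand: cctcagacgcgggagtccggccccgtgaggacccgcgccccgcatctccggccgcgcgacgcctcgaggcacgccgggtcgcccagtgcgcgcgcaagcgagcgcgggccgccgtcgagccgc
Dtx3l, chr16:35939207-35939277, minus strand: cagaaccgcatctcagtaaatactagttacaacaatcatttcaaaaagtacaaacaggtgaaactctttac

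In ECM brains, Parp3, Parp9, Parp10, Parp12, Parp14 and Dtx3l rose 4.31-fold to 9.18-fold over controls. Parp11 was called lower there, a call lost in 12 of 19 alternative settings, and Parp1 and Parp8 did not pass the test. In treated ECM brains, Parp3, Parp9, Parp12 and Dtx3l were called lower than in untreated ECM, and the Dtx3l call was lost in 9 of 19 alternative settings. Parp14 did not pass that test, and in treated ECM it stayed 6.71-fold above controls. Levels are in CPM, the reads of a gene per 1000000 reads of the TMM-scaled library. Calls are those of edgeR's quasi-likelihood test with an adjusted p below 0.05 (Benjamini-Hochberg over 14577 genes). Log2 fold changes are the first group named over the second, ± standard error.

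For ECM against control, 6 of 9 members were called higher, beside 7.28% of all genes tested, and 1 was called lower, beside 2.92% (10.2% in either direction). The members' median log2 fold change was 2.26, beside 0.00 over all genes. For treated ECM against ECM, 4 were called lower, beside 5.67% of genes tested, and 1 was called higher, beside 3.05% (8.71% in either direction), with a median of -0.87 for the members and -0.01 over all genes. For treated ECM against control, 4 were called higher, beside 1.97% of genes tested (2.02% in either direction), with a median of 1.09 for the members and 0.01 over all genes. None was called lower in that comparison by edgeR, beside 0.0549% of genes, and the number was 0 as well at an unadjusted p below 0.05 and by DESeq2. The 3 comparisons share their groups and are therefore not independent of each other. Libraries of the groups did not overlap in 6 members that were higher and 1 that was lower in ECM against control, beside 9.17% and 5.3% of genes. For treated ECM against ECM this held for 2 higher and 5 lower members, beside 10.4% and 11.4%, and in treated ECM against control for 6 higher, beside 10.7%.

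**Figure D1:**
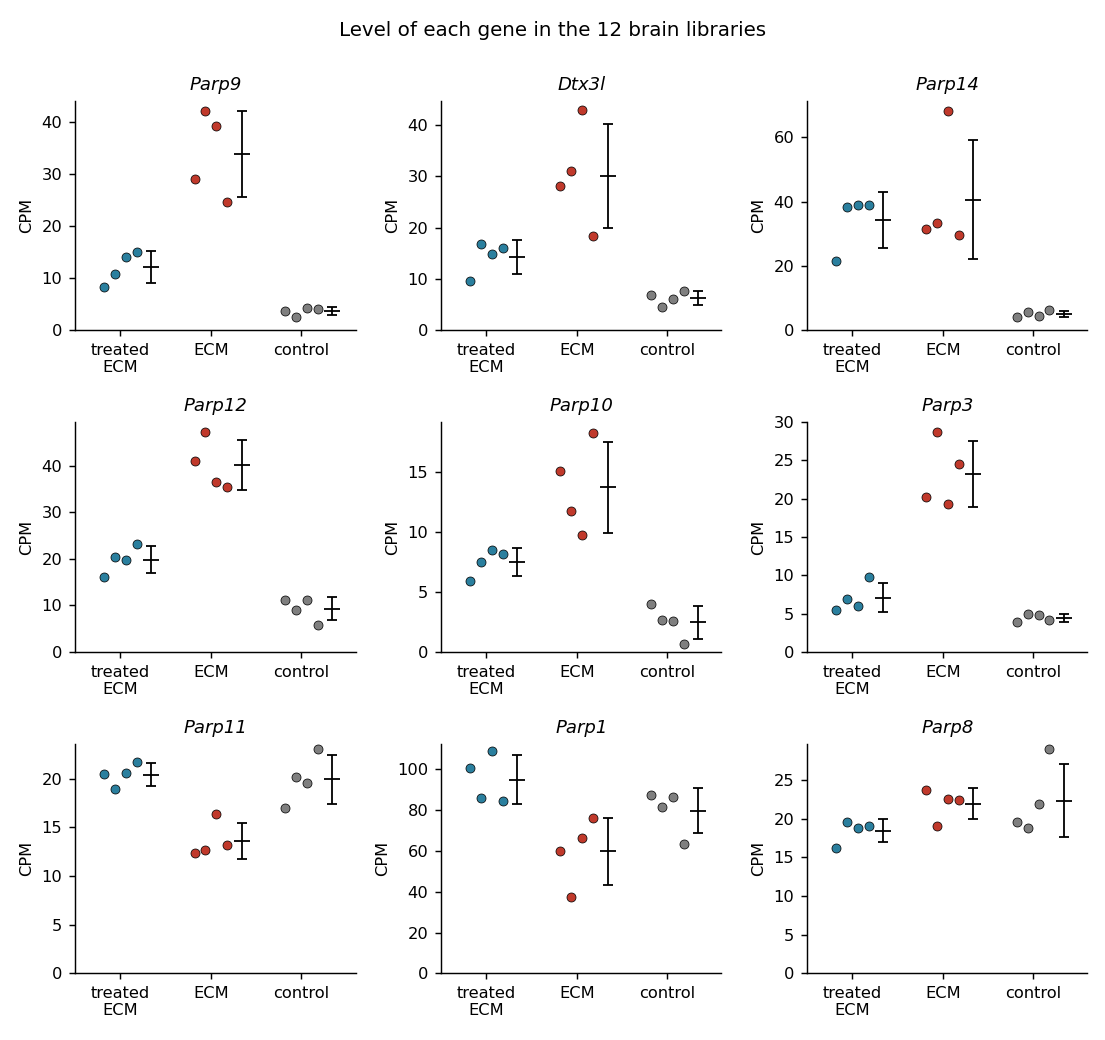
Level of each of the 9 genes in CPM (vertical axis, linear from 0) in every library. Points are libraries, in the order treated ECM, ECM and control from left to right, and the bar beside them is the mean ± SD (n = 4). In 6 genes every ECM library is above every control library, and in Parp14 the treated libraries overlap the ECM libraries.

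Parp9 and Dtx3l lie head to head on chromosome 16 (build mm10, Parp9 from 35938470 to 35972605 on the plus strand, Dtx3l from 35926511 to 35939151 on the minus strand), and their gene bodies overlap by 682 bases. Parp9 had 8.40, 10.7, 14.2 and 15.1 CPM in treated ECM, 29.1, 42.1, 39.2 and 24.6 CPM in ECM, and 3.80, 2.61, 4.23 and 4.07 CPM in controls. The 3 groups did not overlap, with the treated libraries between the other groups. Parp9 rose in ECM by log2 3.20 ± 0.26 over control (edgeR, adjusted p = 3.59e-06). It was lower in treated ECM than in ECM (log2 -1.48 ± 0.24, adjusted p = 0.00339) and higher than in controls (log2 1.72 ± 0.25, adjusted p = 0.00162). With the mitochondrial read share as a covariate, the first of these changes was log2 -0.97 with an adjusted p of 0.0558. Every treated library had a lower share than every ECM library. For any gene, the covariate therefore cannot fully separate this share from treatment in treated ECM against ECM.

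Dtx3l had 9.55, 16.8, 14.8 and 16.0 CPM in treated ECM, 28.0, 31.1, 42.8 and 18.4 CPM in ECM, and 6.80, 4.47, 6.05 and 7.73 CPM in controls. Here too no library of one group reached into another, although ECM 4 and treated ECM 2 were close. The gene rose in ECM (log2 2.26 ± 0.28, adjusted p = 0.000104). In treated ECM it was called lower than in ECM (log2 -1.07 ± 0.27, adjusted p = 0.0267). That call was lost without any of the 4 treated libraries, without ECM 2 or without ECM 3 (adjusted p = 0.0506 to 0.0876), with the replicate number as a block (adjusted p = 0.0808), without control 4, ECM 2 and ECM 3 (log2 -0.69, adjusted p = 0.0811), and with the mitochondrial read share as a covariate (log2 -0.44, adjusted p = 0.417). It was called higher in treated ECM than in controls (log2 1.19 ± 0.27, adjusted p = 0.0393), and this call was lost in 8 of 12 omissions of 1 library (treated ECM 2, 3 and 4, ECM 1 and 2, control 1, 2 and 3, adjusted p = 0.0593 to 0.140) and with the block (adjusted p = 0.134). The exons of Parp9 and Dtx3l share 458 bases, 9.40% of the exon length of Parp9, and the labels do not say whether the counting separated reads there by strand.

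The ratio of Dtx3l to Parp9 reads within a library does not depend on how libraries are scaled. It was 1.14, 1.56, 1.04 and 1.06 in treated ECM, 0.963, 0.737, 1.09 and 0.746 in ECM, and 1.79, 1.71, 1.43 and 1.90 in controls. Controls therefore held more Dtx3l than Parp9 reads in all 4 libraries, and ECM libraries held fewer in 3 of 4. The log2 ratio was -0.20 ± 0.28 in ECM and 0.76 ± 0.18 in controls (SD, n = 4 each), a difference of -0.96 (two-sided exact permutation test, p = 0.0286, the smallest that 4 against 4 libraries allow, and 0.0857 adjusted over the 3 comparisons). Differences in the log2 ratio of 0.44 for treated ECM against ECM (exact p = 0.0857) and -0.52 for treated ECM against control (exact p = 0.0571) had the same adjusted p of 0.0857, so no comparison of this ratio passed after adjustment.

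Parp14 (chromosome 16, 35832874 to 35871544, minus strand) starts 67.6 kb from Dtx3l, and no other protein-coding gene starts between the outer ends of the 3 genes, which span 139.7 kb. It had 21.4, 38.3, 38.8 and 39.0 CPM in treated ECM, 31.4, 33.4, 68.2 and 29.6 CPM in ECM, and 4.02, 5.77, 4.52 and 6.17 CPM in controls. Treated and untreated ECM overlapped, and both lay above all controls. The rise over control was log2 2.99 ± 0.31 in ECM (adjusted p = 2.60e-05) and log2 2.75 ± 0.31 in treated ECM (adjusted p = 0.000161). Between treated and untreated ECM the difference was log2 -0.24 ± 0.28 (adjusted p = 0.617), which does not show that the levels are equal. Its sign rests on ECM 3, the highest library, since without it the value was log2 0.13 (adjusted p = 0.767). It was also positive with the mitochondrial share as a covariate (log2 0.29, adjusted p = 0.703) and without control 4, ECM 2 and ECM 3 (log2 0.18, adjusted p = 0.627). Without treated ECM 1, the lowest treated library, it was log2 -0.06 (adjusted p = 0.930).

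Ratios within libraries, chosen after the values were seen, describe how Parp14 differed from its neighbours in this respect. Parp14 to Parp9 was 2.55, 3.56, 2.74 and 2.59 in treated ECM, 1.08, 0.794, 1.74 and 1.20 in ECM, and 1.06, 2.21, 1.07 and 1.52 in controls. Every treated library was above every ECM and control library. The log2 ratio differed by 1.29 between treated ECM and ECM and by 1.02 between treated ECM and control (two-sided exact permutation tests, p = 0.0286 each, 0.0429 adjusted over 6 tests). That p is the smallest that 4 against 4 libraries allow. The 6 tests leave out the 3 of the Dtx3l to Parp9 ratio, so adjusted values of the planned and the added ratios cannot be compared. Because these ratios were picked from the values, their p-values describe the separation and are not a test of it. Parp14 to Dtx3l was 2.24, 2.28, 2.62 and 2.44 in treated ECM, 1.12, 1.08, 1.59 and 1.61 in ECM, and 0.591, 1.29, 0.747 and 0.798 in controls. The treated libraries were again highest, with a log2 difference of 0.85 from ECM and of 1.54 from controls (exact p = 0.0286 each, 0.0429 adjusted over 6 tests). Without 1 library the smallest p such a test allows is 0.0571. The differences stayed positive in all 32 omissions, which had to be so because the libraries did not overlap.

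**Figure D2:**
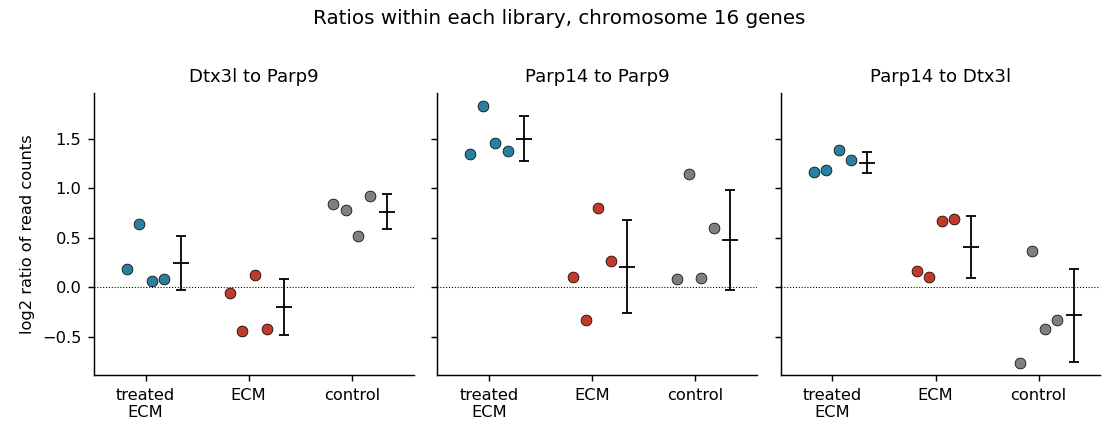
Log2 ratio of read counts (vertical axis) within each library for Dtx3l to Parp9, Parp14 to Parp9 and Parp14 to Dtx3l, with treated ECM, ECM and control from left to right. Points are libraries and bars the mean ± SD (n = 4). Both Parp14 ratios are highest in the 4 treated libraries, and the Dtx3l to Parp9 ratio is above 1 in every treated and control library.

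Of the protein-coding genes that start within 250 kb of the Dtx3l start, 9 were tested, 6 of them not members. Of these 6, edgeR called 0 in ECM against control, with 2 at an unadjusted p below 0.05 and 1 called by DESeq2. All 3 counts were 0 for treated ECM against control. Hspbap1 was called in treated ECM against ECM (3.89 CPM in treated ECM and 1.93 CPM in ECM, log2 1.01 ± 0.25, adjusted p = 0.0267). Kpna1, an importin gene that starts 39.6 kb beyond Dtx3l, averaged 201.5 CPM in ECM and 206.1 CPM in controls (log2 -0.03 ± 0.19, adjusted p = 0.946). Dirc2, 169.8 kb on the other side, averaged 126.6 CPM in ECM and 94.4 CPM in controls (log2 0.42 ± 0.13, adjusted p = 0.0662).

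**Figure D3:**
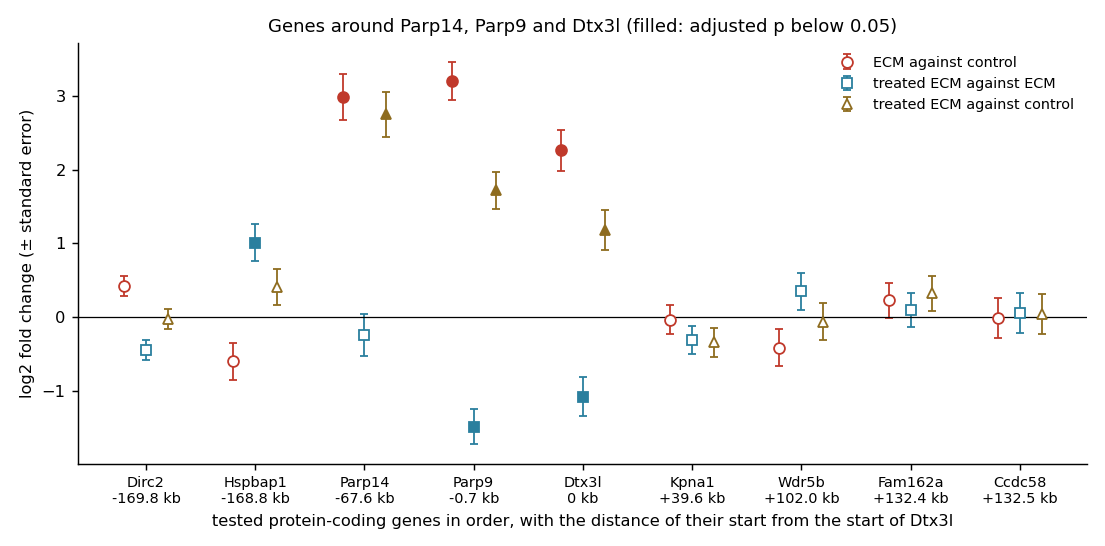
Log2 fold change ± standard error (vertical axis) of the tested protein-coding genes around Dtx3l, in chromosomal order (horizontal axis, with the distance of each start from that of Dtx3l in kb) for the 3 comparisons. Filled symbols are calls at an adjusted p below 0.05: Parp14, Parp9 and Dtx3l are filled in ECM against control, and the flanking genes are not.

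Parp12 (chromosome 6, 39086410 to 39118349, minus strand) encodes an enzyme with CCCH zinc fingers that attaches single ADP-ribose units and restrains viral protein synthesis. It had 16.1, 20.3, 19.8 and 23.1 CPM in treated ECM, 41.0, 47.3, 36.5 and 35.5 CPM in ECM, and 11.2, 9.06, 11.1 and 5.76 CPM in controls. The groups were fully separate. Parp12 rose in ECM (log2 2.11 ± 0.22, adjusted p = 2.28e-05), was lower in treated ECM than in ECM (log2 -1.01 ± 0.21, adjusted p = 0.0106) and higher in treated ECM than in controls (log2 1.09 ± 0.21, adjusted p = 0.0123). The treated against ECM call was lost with the mitochondrial share as a covariate (adjusted p = 0.0506), and the treated against control call with the block (adjusted p = 0.0539).

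Parp10 (chromosome 15, 76231174 to 76243441, minus strand), encodes a transferase of single ADP-ribose units. It had 5.90, 7.46, 8.51 and 8.17 CPM in treated ECM, 15.1, 11.8, 9.70 and 18.3 CPM in ECM, and 3.96, 2.67, 2.55 and 0.678 CPM in controls. No libraries overlapped between groups, but control 4, with 10 reads, stood below the other controls. Parp10 rose in ECM (log2 2.46 ± 0.39, adjusted p = 0.000852). Neither comparison of the treated group passed: log2 -0.87 ± 0.36 against ECM (adjusted p = 0.152) and log2 1.59 ± 0.38 against control (adjusted p = 0.0522). Without control 4 both passed (adjusted p = 0.0282 and 0.0269), as they did without control 4, ECM 2 and ECM 3 (adjusted p = 0.00627 and 0.00705). The comparison with control also passed without control 1 (adjusted p = 0.0312), with DESeq2 (adjusted p = 0.000910), with DESeq2 size factors (adjusted p = 0.0475) and with no filter (adjusted p = 0.0493). Against ECM the change was log2 -1.69 (adjusted p = 0.0353) with the mitochondrial share as a covariate. Parp10 shares 205 exon bases, 4.80% of its exon length, with Plec on the same strand.

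Parp3 (chromosome 9, 106470322 to 106476949, minus strand) encodes a DNA-break-activated enzyme related to PARP1. It had 5.48, 6.92, 6.03 and 9.76 CPM in treated ECM, 20.3, 28.8, 19.3 and 24.6 CPM in ECM, and 3.85, 4.96, 4.88 and 4.13 CPM in controls. The treated libraries lay near the controls, without overlapping them. The rise in ECM was log2 2.38 ± 0.22 (adjusted p = 1.20e-05). Parp3 was lower in treated ECM than in ECM (log2 -1.72 ± 0.22, adjusted p = 0.000797). Treated ECM against control did not pass (log2 0.66 ± 0.22, adjusted p = 0.249).

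Parp11 (chromosome 6, 127446840 to 127494261, plus strand), which has a WWE domain and has been tied to breakdown of the type I interferon receptor, went the other way. It had 20.5, 18.9, 20.6 and 21.7 CPM in treated ECM, 12.3, 12.6, 16.4 and 13.2 CPM in ECM, and 17.0, 20.2, 19.5 and 23.0 CPM in controls. All ECM libraries were below the libraries of both other groups. Parp11 fell in ECM against control (log2 -0.55 ± 0.15, adjusted p = 0.0385) and was higher in treated ECM than in ECM (log2 0.58 ± 0.15, adjusted p = 0.0351). Both calls were near the threshold. The first was lost without any library other than ECM 3 and control 1 (10 of 12 omissions, adjusted p = 0.0525 to 0.105), with the block (adjusted p = 0.0965) and with only the 2 groups in the fit (adjusted p = 0.159). The other was lost without any treated library, ECM 1, ECM 2 or control 3 (adjusted p = 0.0524 to 0.0946), with the block (adjusted p = 0.0909) and with only the 2 groups (adjusted p = 0.0518). Treated ECM against control gave log2 0.04 ± 0.15 (adjusted p = 0.927).

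Parp1 (chromosome 1, 180568924 to 180601254, plus strand) had the highest mean level of the members per kilobase of exon in each group, but overlapped Parp12 in ECM. It had 100.6, 85.9, 108.9 and 84.2 CPM in treated ECM, 60.03, 37.3, 66.3 and 75.9 CPM in ECM, and 87.4, 81.7, 86.3 and 63.5 CPM in controls. Treated libraries were above all ECM libraries, and control 4 lay within the ECM range. No comparison passed: log2 -0.41 ± 0.20 in ECM against control (adjusted p = 0.250), 0.66 ± 0.20 in treated ECM against ECM (adjusted p = 0.0567) and 0.25 ± 0.20 in treated ECM against control (adjusted p = 0.592). The treated against ECM difference passed without ECM 4 (adjusted p = 0.0260), without control 4 (adjusted p = 0.0352), without control 4, ECM 2 and ECM 3 (adjusted p = 0.0316) and with DESeq2 (adjusted p = 0.0210). With the mitochondrial share as a covariate it was log2 0.23 (adjusted p = 0.567). Parp8 (chromosome 13, 116854820 to 117025537, minus strand) ranged from 16.3 to 19.6 CPM in treated ECM, from 19.1 to 23.8 CPM in ECM and from 18.8 to 29.1 CPM in controls. Its groups overlapped and no comparison passed. The change was log2 -0.02 ± 0.17 in ECM against control (adjusted p = 0.953). It was log2 -0.25 ± 0.17 in treated ECM against ECM (adjusted p = 0.353) and -0.28 ± 0.17 in treated ECM against control (adjusted p = 0.506).

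**Figure D4:**
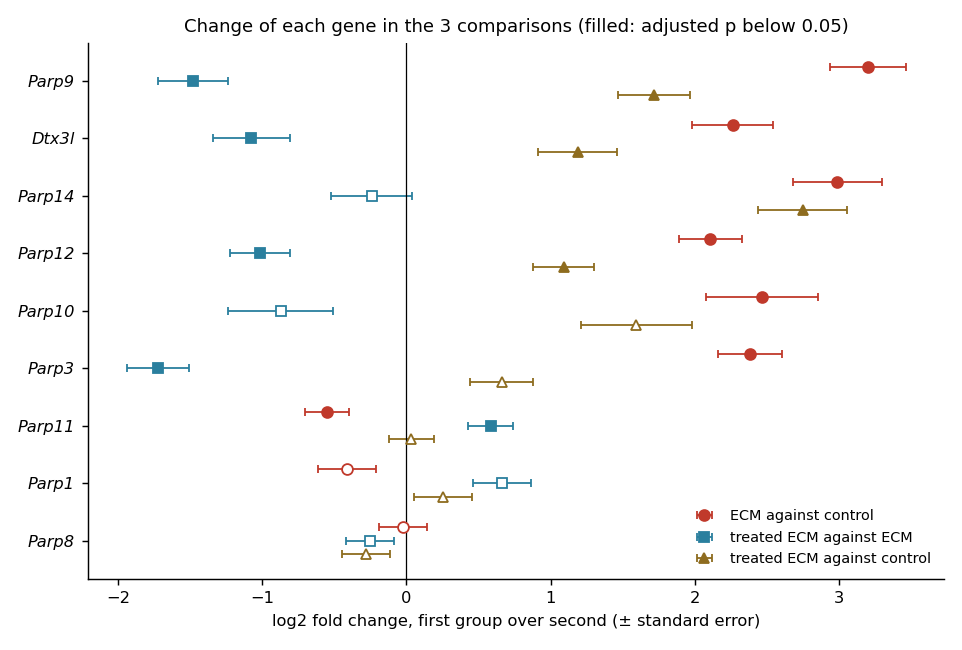
Log2 fold change (horizontal axis, first group over second) ± standard error of the 9 genes in the 3 comparisons. Filled symbols passed at an adjusted p below 0.05. Parp14 is near 2.99 and 2.75 in ECM and in treated ECM against control, while Parp3 is at 2.38 and 0.66.

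The authors' deposited tables, which hold genes beyond a 2-fold change, list 6 members, all higher, among 1459 genes in ECM against control. The authors' deposited table of treated ECM against ECM lists 4, all lower, among 1361 genes, and that of treated ECM against control 5, all higher, among 637 genes. In the authors' deposited table Parp9 has a log2 fold change of 3.19 in ECM against control and Parp14 of 2.98. Parp10 is in the authors' deposited table of treated ECM against control with a log2 fold change of 1.59 and an adjusted p of 0.00292.

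Levels of different genes were compared per kilobase of annotated exon (GENCODE M21), in CPM per kb, mean ± SD (n = 4). In treated ECM Parp1 had 17.9 ± 2.24, Parp12 4.96 ± 0.714 and Parp14 3.69 ± 0.930 CPM per kb, and the other members lay between 1.76 and 2.91 on average, with overlapping neighbours. In ECM the order was Parp1 (11.3 ± 3.10), Parp12 (10.02 ± 1.34), Parp9 (6.93 ± 1.69), Parp3 (6.28 ± 1.17), Dtx3l (5.25 ± 1.76), Parp14 (4.37 ± 1.98), Parp10 (3.21 ± 0.881), Parp8 (2.47 ± 0.224) and Parp11 (1.94 ± 0.264). Libraries of neighbouring genes in that order overlapped, except that all Parp12 levels (8.88 to 11.8) were above all Parp9 levels (5.06 to 8.64). In controls Parp1 (15.1 ± 2.09) stood apart from Parp11 (2.84 ± 0.356), Parp8 (2.52 ± 0.527) and Parp12 (2.32 ± 0.638), which overlapped each other. Below them, Parp3 (1.21 ± 0.148), Dtx3l (1.09 ± 0.241), Parp9 (0.754 ± 0.151), Parp10 (0.576 ± 0.316) and Parp14 (0.550 ± 0.109) were lowest in controls. The last of these overlapped, with Parp10 between 0.159 and 0.927 and Parp14 between 0.431 and 0.663 CPM per kb.

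Likeness of pattern was measured as the root mean square difference between log2 CPM values over the 12 libraries, each gene centred on its own mean, among 13167 other genes with at least 1 CPM on average. Genes with names of 8 or more characters were left out, since their deposited counts were displaced. The genes nearest to Parp14 were Gbp9 (0.29), Gbp7 (0.31) and Isg20 (0.38). Gbp9, a guanylate-binding protein gene, averaged 28.9 CPM in treated ECM, 29.04 CPM in ECM and 3.78 CPM in controls. Nearest to Parp9 were Trim21 (0.26), Ptprc (0.30) and Trim30a (0.31), and Trim21 averaged 5.59 CPM in treated ECM, 15.6 CPM in ECM and 2.15 CPM in controls. Dtx3l was closest to Irak3 (0.21), Sp100 (0.28) and Lyve1 (0.28), Parp12 to Sash3 (0.17), Tapbp (0.22) and Tagln2 (0.24), and Parp3 to Tgfbi (0.23), Ucp2 (0.25) and Cenpa (0.28). Parp10 had H2-D1 (0.35), Tap2 (0.36) and Col4a1 (0.36) as its nearest genes, at larger distances. For Parp11 they were Eya3 (0.11), Pank1 (0.12) and Amz2 (0.12), for Parp1 Sec14l1 (0.11), Dlg4 (0.11) and Rabl6 (0.12), and for Parp8 they included Usp48 (0.11) and Dpyd (0.11). Genes that vary little are near to each other on this measure. Among the members, Dtx3l ranked 28 of 13167 from Parp9 (0.44), Parp12 ranked 22 from Parp10 (0.48) and 47 from Parp3 (0.40), and Parp9 ranked 42 from Parp14 (0.66). Some ranks were further down: Parp14 ranked 169 from Parp9, 407 from Dtx3l, 1851 from Parp12 and 3510 from Parp3.

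The PARP family outside these members had 8 genes tested. In ECM against control 1 was called higher, with a median log2 fold change of -0.01 beside 0.00 over all genes. That gene, Zc3hav1, encodes the zinc-finger antiviral protein, an RNA-binding family member also named PARP13. It averaged 28.4 ± 3.79 CPM in ECM and 8.01 ± 1.14 CPM in controls (log2 1.82 ± 0.17, adjusted p = 1.20e-05), and 12.1 ± 1.37 CPM in treated ECM, lower than in ECM (log2 -1.22 ± 0.17, adjusted p = 0.00136). With Zc3hav1, 2 of the 8 were called lower in treated ECM against ECM, and 0 were called in treated ECM against control by edgeR (2 at an unadjusted p below 0.05, 0 by DESeq2). Parp4, of the vault particle, was called lower in treated ECM than in ECM (8.10 ± 0.203 CPM in treated ECM and 12.7 ± 1.40 CPM in ECM, adjusted p = 0.0319) and did not pass in ECM against control (adjusted p = 0.0775). Tiparp, a target of the aryl hydrocarbon receptor, averaged 41.5 ± 7.07 CPM in ECM and 25.2 ± 12.6 CPM in controls (adjusted p = 0.140). Parp2, the repair enzyme closest to PARP1, had the largest p of the list (15.5 ± 2.29 CPM in ECM and 15.1 ± 1.86 CPM in controls, adjusted p = 0.926).

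Of 11 genes for interferon receptors and signalling, 5 were called higher in ECM against control (median log2 0.45), 4 lower in treated ECM against ECM (median -0.39) and 3 higher in treated ECM against control (median 0.31). Irf1, a transcription factor of the interferon-gamma response, averaged 34.5 ± 7.18 CPM in treated ECM, 31.9 ± 1.61 CPM in ECM and 3.94 ± 0.773 CPM in controls. It was called in ECM against control (log2 3.02 ± 0.21, adjusted p = 8.64e-07) and in treated ECM against control (log2 3.13 ± 0.21, adjusted p = 1.36e-06), with log2 0.11 ± 0.19 between treated and untreated ECM (adjusted p = 0.743). Irf9, the DNA-binding part of a complex formed after type I interferon signalling, averaged 21.4 ± 6.12 CPM in treated ECM, 52.2 ± 4.50 CPM in ECM and 8.84 ± 0.442 CPM in controls and passed in all 3 comparisons. Jak2, a kinase bound to cytokine receptors, had the largest p in ECM against control (72.5 ± 13.2 CPM in ECM and 70.9 ± 31.8 CPM in controls, adjusted p = 0.961).

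Genes that make or use NAD, the substrate of PARP enzymes, were called higher in 3 and lower in 1 of 19 tested in ECM against control (median log2 0.05). Bst1, an NAD-cleaving surface enzyme of myeloid cells, averaged 5.44 ± 1.29 CPM in ECM and 0.194 ± 0.0647 CPM in controls (log2 4.77 ± 0.46, adjusted p = 1.49e-05). Cd38, its relative on leukocytes and glia, averaged 14.6 ± 4.16 CPM in treated ECM, 32.1 ± 10.6 CPM in ECM and 14.04 ± 2.39 CPM in controls, and passed in ECM against control (adjusted p = 0.00813) and in treated ECM against ECM (adjusted p = 0.0165). Nampt, the rate-limiting enzyme of NAD salvage, averaged 73.4 ± 3.01 CPM in treated ECM, 135.6 ± 39.8 CPM in ECM and 80.3 ± 12.997 CPM in controls and passed in the same comparisons (adjusted p = 0.0249 and 0.0158). Sirt3, a mitochondrial NAD-dependent deacylase, had the largest p (36.005 ± 18.95 CPM in ECM and 34.2 ± 14.002 CPM in controls, adjusted p = 0.935). Of the 19, 1 was called higher and 2 lower in treated ECM against ECM, and 1 higher in treated ECM against control.

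Among ADP-ribose erasers 1 of 8 was called lower and 0 higher in ECM against control by edgeR (median log2 0.06), with 0 higher as well at an unadjusted p below 0.05 and by DESeq2. The one called, Enpp1, a surface phosphodiesterase, averaged 6.34 ± 2.52 CPM in ECM and 11.9 ± 1.56 CPM in controls (log2 -0.91 ± 0.25, adjusted p = 0.0326). Parg, which trims ADP-ribose chains, averaged 36.1 ± 3.43 CPM in ECM and 45.3 ± 5.19 CPM in controls (adjusted p = 0.163). Macrod2, a macrodomain hydrolase, averaged 68.8 ± 15.1 CPM in ECM and 65.1 ± 12.7 CPM in controls (adjusted p = 0.856). Adprhl2, the serine ADP-ribose hydrolase, had the largest p (15.8 ± 6.41 CPM in ECM and 15.5 ± 6.78 CPM in controls, adjusted p = 0.974). DNA repair partners of PARP1 had 1 of 9 called higher, Timeless (9.17 ± 1.59 CPM in ECM and 5.59 ± 0.464 CPM in controls, adjusted p = 0.0339), with a median of -0.04. Aplf (adjusted p = 0.150) and Lig3 (adjusted p = 0.186), which work in strand-break repair, did not pass, and Chd1l, a chromatin remodeller recruited by ADP-ribose chains, had the largest p (adjusted p = 0.947). In both comparisons of the treated group edgeR called 0 erasers and 0 repair partners. DESeq2 called 0 erasers in either and 1 repair partner, higher than in ECM. At an unadjusted p below 0.05 there were 0 erasers and 1 repair partner against ECM, and 1 eraser and 0 repair partners against control. For the 4 other deltex genes Dtx1, Dtx2, Dtx3 and Dtx4, 0 were called in any comparison by edgeR, 0 by DESeq2, and 1 had an unadjusted p below 0.05, in treated ECM against control. Their adjusted p in ECM against control was 0.895, 0.679, 0.982 and 0.978.

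**Figure D5:**
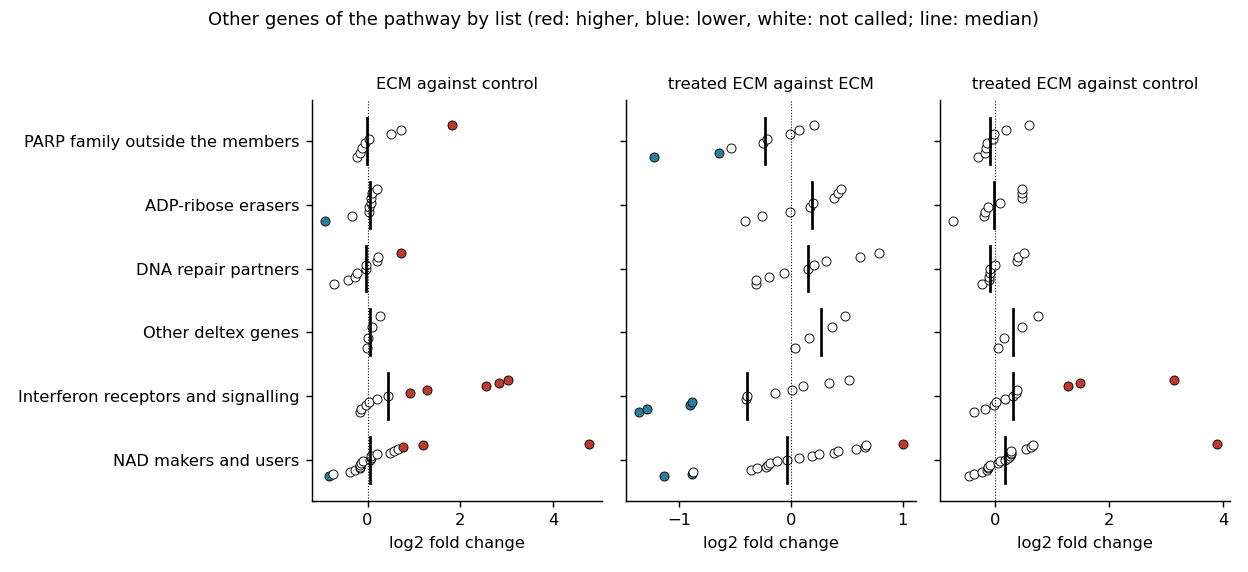
Log2 fold change (horizontal axis) of each tested gene in 6 lists of related genes (rows) for the 3 comparisons (panels). Each point is a gene, coloured when called at an adjusted p below 0.05, and the vertical line is the median of the list. In ECM against control, 5 of 11 genes for interferon receptors and signalling and 3 of 19 NAD genes were called higher, beside 7.28% of all genes tested.

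Libraries held 13307625 to 18838545 assigned reads. Marker genes of neurons, astrocytes, oligodendrocytes and microglia were detected in all groups. Astrocyte markers summed to 1556 to 1787 CPM in treated ECM, 2267 to 3123 CPM in ECM and 1539 to 1866 CPM in controls, with 2 of 5 called higher in ECM against control and 2 lower in treated ECM against ECM. Endothelial markers summed to 189.7 to 241.7 CPM in treated ECM, 292 to 341 CPM in ECM and 174 to 221 CPM in controls. Of these 5, 3 were called higher and 1 lower in ECM against control, and 1 higher and 2 lower in treated ECM against ECM. Monocyte and macrophage markers summed to 39.5 to 75.7 CPM in treated ECM, 140.9 to 345 CPM in ECM and 10.8 to 12.4 CPM in controls. Of these, 7 of 7 were called higher in ECM against control, 7 of 7 lower in treated ECM against ECM, and 6 of 7 higher in treated ECM against control. T and NK cell markers summed to 10.6 to 25.3 CPM in treated ECM, 31.4 to 72.2 CPM in ECM and 7.12 to 12.6 CPM in controls, with Cd3g, Cd8b1 and Ncr1 at 0 in controls. Of 7 tested, 6 were called higher in ECM against control, 4 lower in treated ECM against ECM, and 5 higher in treated ECM against control. Neutrophil markers had 2 of 3 tested called higher in ECM against control, 0 called in treated ECM against ECM, and 2 higher in treated ECM against control. In these bulk samples more cells of a type and more RNA per cell cannot be told apart, and the part of leukocytes, astrocytes and endothelium in the members' changes was not tested. B cell markers summed to at most 1.28 CPM in any library. Erythroid markers summed to 13.6 to 82.2 CPM in treated ECM, 0 to 0.762 CPM in ECM and 11.05 to 45.3 CPM in controls. Microglia markers summed to 187 to 252 CPM in treated ECM, 135 to 258 CPM in ECM and 229.9 to 251.8 CPM in controls, with 1 of 5 called lower in ECM against control. Mitochondrial reads made up 4.75% to 5.28% of treated libraries, 5.55% to 15.3% of ECM libraries and 5.70% to 10.7% of control libraries, with the highest shares in ECM 2, ECM 3 and control 4. Without these 3 libraries 6 members were called higher and 1 lower in ECM against control.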

How the data were processed

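Per the labels' protocols, RNA of brains stored in RNAlater was isolated using Trizol and turned into libraries by a NEBNext Ultra kit. Trimmomatic, FastQC, STAR, HTSeq and build mm10 are named in the submitters' processing notes, without versions or annotation. The deposited table holds the authors' read count per gene, unscaled, for 21983 genes and 12 libraries. The authors' deposited tables of the 3 comparisons give a log2 fold change and a p-value, made with a tool not given in the sources used here. Per the file headers and their values, they also hold a normalized signal and an FPKM per library, which were not used in tests.

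In 2212 genes with names of 8 or more characters the deposited counts were displaced and were put back. Treated ECM 4 then differed from the authors' deposited tables in 98 of 107 such genes and 0 differed in other libraries, so these genes were fitted on 11 libraries, a departure from the planned 12 made after the files were seen. No member was among them. Another 26 names turned into dates were left out.

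After filterByExpr and TMM scaling, counts of all groups entered 1 quasi-likelihood model (edgeR 4.0.16, R 4.3.3), with Benjamini-Hochberg adjustment over 14577 genes in each comparison. DESeq2 1.42.0 was an alternative. Other alternatives were DESeq2 size factors, no filter, the replicate number as a block, the mitochondrial read share as a covariate, only the groups compared, and leaving out each library or 3 libraries together. Ratios of counts were compared by exact permutation tests over libraries. The pipeline was tested on simulated data. Coordinates came from GENCODE M21 by symbol, which matched 21871 of 21957 names (99.6%). Libraries held 13307625 to 18838545 assigned reads. No strand-specific counting is stated.

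Members and lists were chosen with earlier results of these data known. Named from each list were the 3 genes with the smallest p in ECM against control and the gene with the largest, plus the 3 genes nearest in pattern to each member. Locus neighbours and Parp14 ratios were chosen after the values were seen. Of the genes this rule names, 2 are not reported here.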

Additional observations from a re-analysis of the deposited data

Results flagged for a closer look

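In 30 groups of 4 libraries examined (the 9 genes and the Dtx3l to Parp9 ratio in 3 groups), 2 held a library far from the others, and chance gives about 5% of groups. Both concern Parp14. Treated ECM 1 was lowest, at 21.4 CPM, with the other treated libraries at 38.3 to 39.0 CPM (a gap of 0.958 of the range). ECM 3 was highest, at 68.2 CPM, with the other ECM libraries at 29.6 to 33.4 CPM (a gap of 0.900 of the range). Without treated ECM 1, Parp14 differed between treated ECM and ECM by log2 -0.06, and without ECM 3 by log2 0.13 (edgeR, adjusted p = 0.930 and 0.767).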

How the results depend on the processing

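Over 19 alternatives for each of 27 member results (513 values), 458 stayed on their side of the threshold, 42 calls were lost, 13 were gained and 0 called values changed sign. Of the uncalled values 7 changed sign (Parp14 in treated ECM against ECM, Parp8 in ECM against control, Parp11 in treated ECM against control). The cause was not tested in any of these. In ECM against control, the members called lower numbered 0 with the replicate block and 0 with only the groups compared (0 to 1 without 1 library). In treated ECM against ECM, the members called higher numbered 2 with DESeq2, 0 with the block, 2 without control 4, ECM 2 and ECM 3, 0 with only the groups compared and 0 to 2 without 1 library, and those called lower numbered 2 with the mitochondrial covariate. In treated ECM against control, 2 were called higher with the block. Deviations of same-numbered libraries from their group means correlated from -0.613 to 0.300, which does not settle whether replicate numbers pair the libraries.

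Over all genes in ECM against control, 425 were called lower, against 674 with DESeq2, 199 with the block, 1206 with the mitochondrial covariate, 1164 without the 3 libraries, 148 with only the groups compared and 249 to 550 without 1 library. In treated ECM against ECM, 444 were called higher, against 808, 154, 287 and 1040 with DESeq2, the block, the covariate and without the 3 libraries (184 to 807 without 1), and 826 lower, against 1344, 393 and 390 with DESeq2, the block and the covariate (366 to 1302 without 1). In treated ECM against control, 287 were called higher, against 432 with DESeq2, and 8 lower, against 26 with DESeq2, 3 with the block, 45 without the 3 libraries, 16 with only the groups compared and 2 to 13 without 1 library.

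The log2 Dtx3l to Parp9 difference in ECM against control was -0.95 without the 3 libraries (exact p = 0.200) and -0.96 with the replicate block (exact p = 0.125). Without 1 library it was -1.07 to -0.88 (exact p = 0.0571). Each of these p-values is the smallest its test allows, so none could fall below 0.05. Parp10 in control 4 rests on 10 reads, the lowest depth of any member value.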
